A study of Mus musculus with 8 samples.

Results

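The cytosolic ribosomal protein genes are the set described here. A gene belonged if it was protein-coding in the mouse annotation GENCODE M1 (genome build NCBIM37, also called mm9) and its symbol was Rpl or Rps with a number, Rplp0, Rplp1, Rplp2 or Rpsa. This rule took 83 of 22367 protein-coding genes. It gave 31 genes of the small subunit, 42 of the large subunit, 3 of the P stalk and 7 paralog-like genes, whose symbols mark a copy of another ribosomal protein gene.

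Each cytosolic ribosomal protein is made from a single active gene as a rule, and these genes are read in nearly every cell because growing cells need equal amounts of all the proteins. Most of them start at a CpG island and are short. 5-hydroxymethylcytosine (5hmC) is made from 5-methylcytosine by the TET enzymes.

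The study mapped 5hmC in mouse cells by GLIB-Seq, in which a glucose is added to 5hmC, oxidised and tagged with biotin so that the DNA can be pulled down and sequenced. Of its libraries, 6 were used, with 1 library per group: embryonic stem cells of the line E14 (ESCs); fibroblasts from C57BL/6 embryos of embryonic day 11 by the sample labels, where the methods give a later day (MEFs); whole brain and liver of C57BL/6 mice aged 8 weeks; and E14 ESCs transfected with a hairpin vector against GFP (shGFP, the control) or with hairpins against the Polycomb gene Suz12 (shSuz12). The transfected ESCs were kept for 3 days in puromycin at 1 µg/ml. There were no replicates, so 95% intervals given below (exact, Clopper-Pearson) cover counting error only. Expression was not analysed here, so that these genes are highly expressed is known from their biology and not from these libraries.

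A peak is a stretch of the genome in which the deposited list of a library reported enrichment of reads. Its score is read as the p-value on a scale of minus 10 times log10. A gene was counted as having a peak in a window if at least 1 bp of the window lay under a peak. The windows were the gene span (first to last annotated base), 1 kb on either side of the transcription start site (TSS), and the stretch 1 to 3 kb upstream of the TSS. The lists ended at different scores: the lowest was 80 for liver and for ESCs, 30 for brain and for MEFs, 30.34 for shSuz12 and 50.02 for shGFP, so ESCs shared a lowest score with liver, and brain shared one with MEFs.

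The members were short and rich in CpG. Their median span was 3243 bp, beside 15427 bp for all protein-coding genes. By the CpG content around the TSS, 43 members had a high-CpG promoter (HCP; observed over expected CpG above 0.75 with more than 55% G+C in some 500-bp window), 37 an intermediate one (ICP) and 3 a low one (LCP; no window above 0.48). The HCP share was 51.8% of members and 34.2% of all protein-coding genes, and the LCP share 3.61% and 40.9%. The LCP members were Rpl3l, Rps10 and Rps2. The median number of CpGs within 1 kb of the TSS was 95 in members and 61 in all protein-coding genes. The spans of 30 members held 58 small nucleolar RNAs.

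In the gene span the members were below all protein-coding genes in ESCs and above them in liver. A peak lay in the span of 16 of 83 members in ESCs (19.3%, interval 11.4% to 29.4%), where 67.8% of all protein-coding genes had one. In liver it lay in the span of 61 members (73.5%, interval 62.7% to 82.6%), against 57.9% of all. HCP genes had a span peak in 85.5% in ESCs and 82.8% in liver, above the members in both. Ribosomal protein genes were therefore mostly without 5hmC peaks in ESCs and mostly with one in liver. MEFs gave 39 members, where 61% of all protein-coding genes had a peak, and brain gave 27, where 60.7% had one. The other ESC libraries gave 16 members in shGFP (all genes 63.4%) and 17 in shSuz12 (all genes 63%). As deposited, the 3 ESC lists thus left about the same number of members bare, though their lowest scores differ.

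Short genes meet fewer peaks, so the members were also set beside the 1915 protein-coding genes of similar length, those with a span between 2470 and 4723.5 bp, the middle range of the members. Of these genes 53.2% had a peak in ESCs, 37.4% in MEFs, 38.2% in brain, 43.2% in liver, 45.7% in shGFP and 41.1% in shSuz12. The members were below that share in ESCs, brain, shGFP and shSuz12, and above it in MEFs and liver. The MEF order turned when only scores of at least 80 were kept, at 15.7% of members and 16.3% of genes of similar length. The mean percent of a member's span under peaks was 4.34% in ESCs and 33.2% in liver, beside 23.4% and 20.9% in genes of similar length. Genes as short as the members had a peak in ESCs far more often than the members did.

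**Figure D1:**
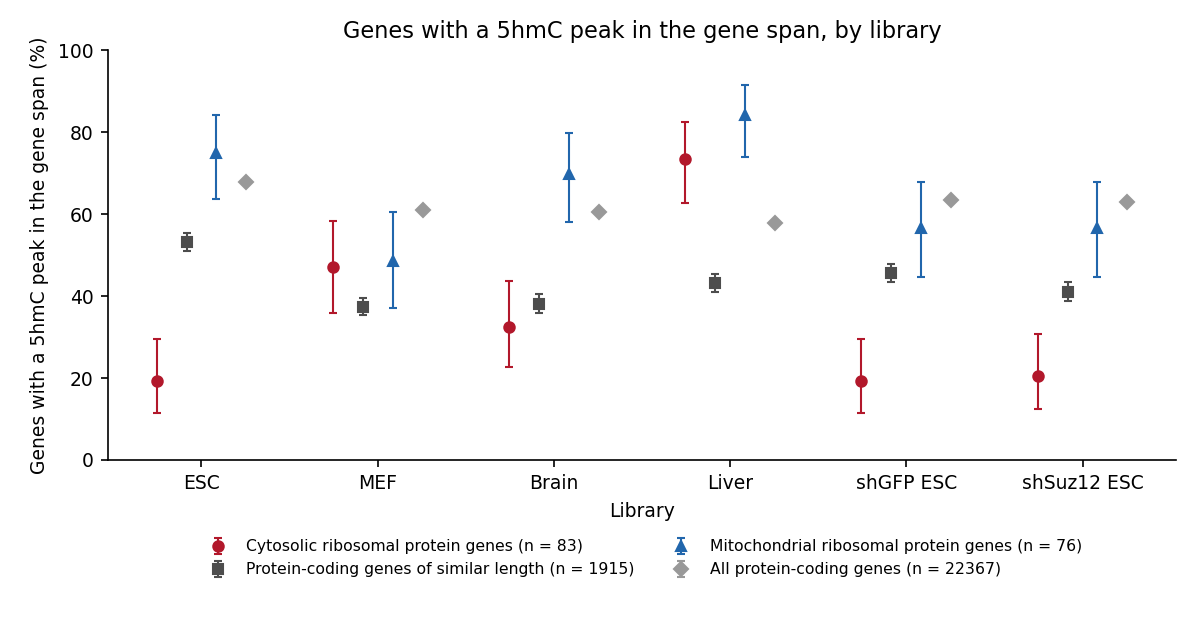
Share of genes with a peak in the gene span (vertical axis, %) in each of the 6 libraries (horizontal axis). The sets are cytosolic ribosomal protein genes, mitochondrial ribosomal protein genes, all protein-coding genes and protein-coding genes of similar length. Error bars are exact 95% intervals for counting error in 1 library each. Across libraries, the cytosolic ribosomal protein genes have their lowest shares in the 3 ESC libraries and their highest in liver. In liver the mitochondrial ribosomal protein genes lie above them.

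ESCs and liver were compared gene by gene because their lists end at the same score. Read depth is unknown, so this shared score does not show equal depth. More bp of the span lay under peaks in liver than in ESCs in 60 members (72.3%), against 36.1% of all protein-coding genes. More lay under peaks in ESCs in 3 members (3.61%), against 37.1% of all. Among mitochondrial ribosomal protein genes, described below, 65.8% had more in liver and 26.3% more in ESCs. The other 20 members had no peak in either. The 3 with more in ESCs were the paralog-like Rpl39l and Rpl3l, and the large-subunit gene Rpl35a, which was picked after the values were seen.

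**Figure D2:**
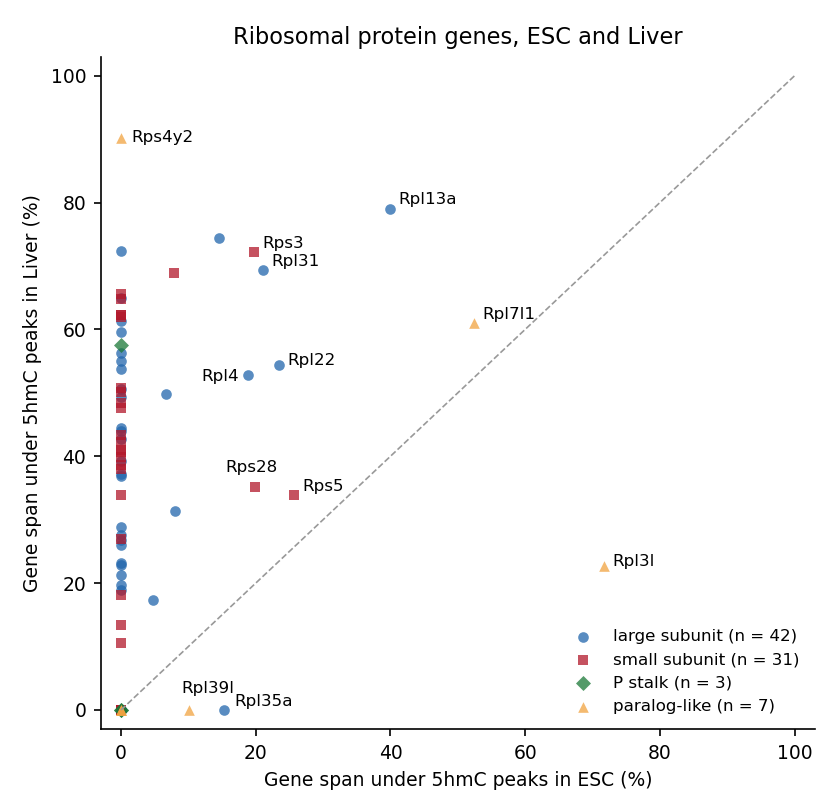
Percent of each ribosomal protein gene's span under peaks in ESCs (horizontal axis) and in liver (vertical axis), coloured by subunit; the dashed line marks equal values, and each axis is 1 library. Most genes lie on the left edge, with no ESC peak and a broad range of liver values; Rpl3l, Rpl39l and Rpl35a lie below the line.

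At a score of at least 80 in every list, the members with a peak in the span numbered 16 in ESCs (all genes 67.8%), 13 in MEFs (all genes 38.7%), 9 in brain (all genes 32.9%) and 61 in liver (all genes 57.9%). The same cut left 10 members in shGFP (all genes 53.1%) and 2 in shSuz12 (all genes 30.4%). Liver remained the only library in which the member share exceeded the share of all genes.

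Among the 31 small-subunit genes, a span peak was found in 4 in ESCs, 16 in MEFs, 10 in brain, 25 in liver, 5 in shGFP and 3 in shSuz12. Rps3, a protein at the mRNA entry site of the small subunit, had the highest mean percent of span covered over the 4 cell types, 43.2%. In each single cell type another member was highest: Rpl3l in ESCs (71.65%), Rpl13 in MEFs (54.7%), Rps7 in brain (64.3%) and Rps4y2 in liver (90.1%). The spans of Rpl13 (Gm20388) and Rps4y2 (Tmtc1) overlapped another protein-coding gene, as did those of 15 members in all. The covered span of Rps3 was 1157 bp in ESCs, 2649 in MEFs, 2083 in brain, 4217 in liver, 1160 in shGFP and 0 in shSuz12. Rps3 thus carried 5hmC peaks in all 4 cell types and none in shSuz12. Rps28 had 1100 bp in ESCs, 1086 in MEFs, 1419 in brain, 1949 in liver, 1043 in shGFP and 1093 in shSuz12. It was the only small-subunit gene with a span peak in all 6 libraries, and its span overlapped the gene Kank3.

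Rpsa, a small-subunit protein also known as the laminin receptor, had 0 bp of its span under peaks in the 3 ESC libraries, 654 bp in MEFs, 1154 in brain and 2864 in liver. Rps6, the small-subunit protein phosphorylated when growth signalling through mTOR is on, had 0 bp in the ESC libraries and in MEFs, 647 in brain and 1100 in liver. Both genes were free of span peaks in ESCs and reached their largest values in liver. Rps19, needed to mature the small-subunit rRNA and often mutated in Diamond-Blackfan anaemia, had 0 bp in ESCs, 2472 in MEFs, 784 in brain, 2097 in liver, 807 in shGFP and 0 in shSuz12. Rps14, a protein of the small-subunit platform, had 0 bp in ESCs and shGFP, 991 in MEFs, 1057 in brain, 2516 in liver and 1005 in shSuz12. The differentiated cells exceeded the untransfected ESCs in both.

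Among the 45 large-subunit and P stalk genes, a span peak was found in 9 in ESCs, 21 in MEFs, 14 in brain, 33 in liver, 7 in shGFP and 10 in shSuz12. A peak lay in the span in all 4 cell types in 11 members, or 13.3%, where 42.3% of all protein-coding genes and 16.3% of those of similar length had this. It lay there in all 6 libraries in 7 members, or 8.43%, where 38.4% of all and 11.3% of those of similar length did. Besides Rps28 and the paralog-like Rpl7l1 these were the large-subunit genes Rpl11, Rpl13a, Rpl22, Rpl24 and Rpl31. The spans of Rpl13a (Flt3l) and Rpl31 (Tbc1d8) overlapped another gene. With scores of at least 80 only 2 members had a span peak in shSuz12, so at most 2 could have one in all 6 libraries.

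Rpl13a, which besides its place in the large subunit silences interferon-induced mRNAs, had 4341 bp in ESCs, 2927 in MEFs, 2062 in brain, 8585 in liver, 2531 in shGFP and 1834 in shSuz12. Its liver peak at chr7:52385068-52391516 scored 1557.84. It had the most liver bp of all members, but this peak lay upstream of the most common start of its transcripts, which is 7680 bp inside the annotated span. The span peaks of the ESC libraries lay upstream of that start too. Rpl11, which binds Mdm2 when ribosome assembly is disturbed, had 2029 bp in ESCs, 2397 in MEFs, 2304 in brain, 7888 in liver, 2279 in shGFP and 1287 in shSuz12. Rpl24, a protein at the subunit interface, had 2041 bp in ESCs, 2040 in MEFs, 898 in brain, 7379 in liver, 1421 in shGFP and 1564 in shSuz12. In both genes liver stood above all the other libraries. The Rpl24 span of 42639 bp overlapped the gene Pcnp. Its annotated TSS lay 7529 bp upstream of the most common start of its transcripts, and its ESC peaks began 23235 bp or more from the TSS.

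Rpl22, a large-subunit protein needed for development of alpha-beta T cells, had 1956 bp in ESCs, 671 in MEFs, 3179 in brain, 4537 in liver, 80 in shGFP and 1479 in shSuz12. Rpl31, at the mouth of the exit tunnel, had 853 bp in ESCs, 1242 in MEFs, 2015 in brain, 2817 in liver, 904 in shGFP and 634 in shSuz12. These genes were covered in brain as well as liver. Rpl4, which lines the exit tunnel, had 973 bp in ESCs, 2307 in MEFs, 1363 in brain, 2732 in liver, 819 in shGFP and 0 in shSuz12. Rpl13, a large-subunit protein, had 0 bp in the 3 ESC libraries, 1583 in MEFs, 754 in brain and 1882 in liver. Rpl13 was the only 1 of the 5 members with the highest mean percent of span covered that was bare in every ESC library.

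Rpl5, the partner of Rpl11 in binding Mdm2, had 1606 bp in liver and 0 bp elsewhere. Rpl38, needed for translation of a group of Hox mRNAs, had 879 bp in MEFs, 2272 in liver and 0 bp elsewhere. Of the P stalk genes, whose proteins recruit elongation factors, Rplp2 had 2427 bp in liver and 0 bp elsewhere. Rplp0 and Rplp1 had 0 bp in all 6 libraries. Rpl11, with a span of 25164 bp, thus had span peaks in every library, and its partner Rpl5, with a span of 8504 bp, in liver alone.

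**Figure D3:**
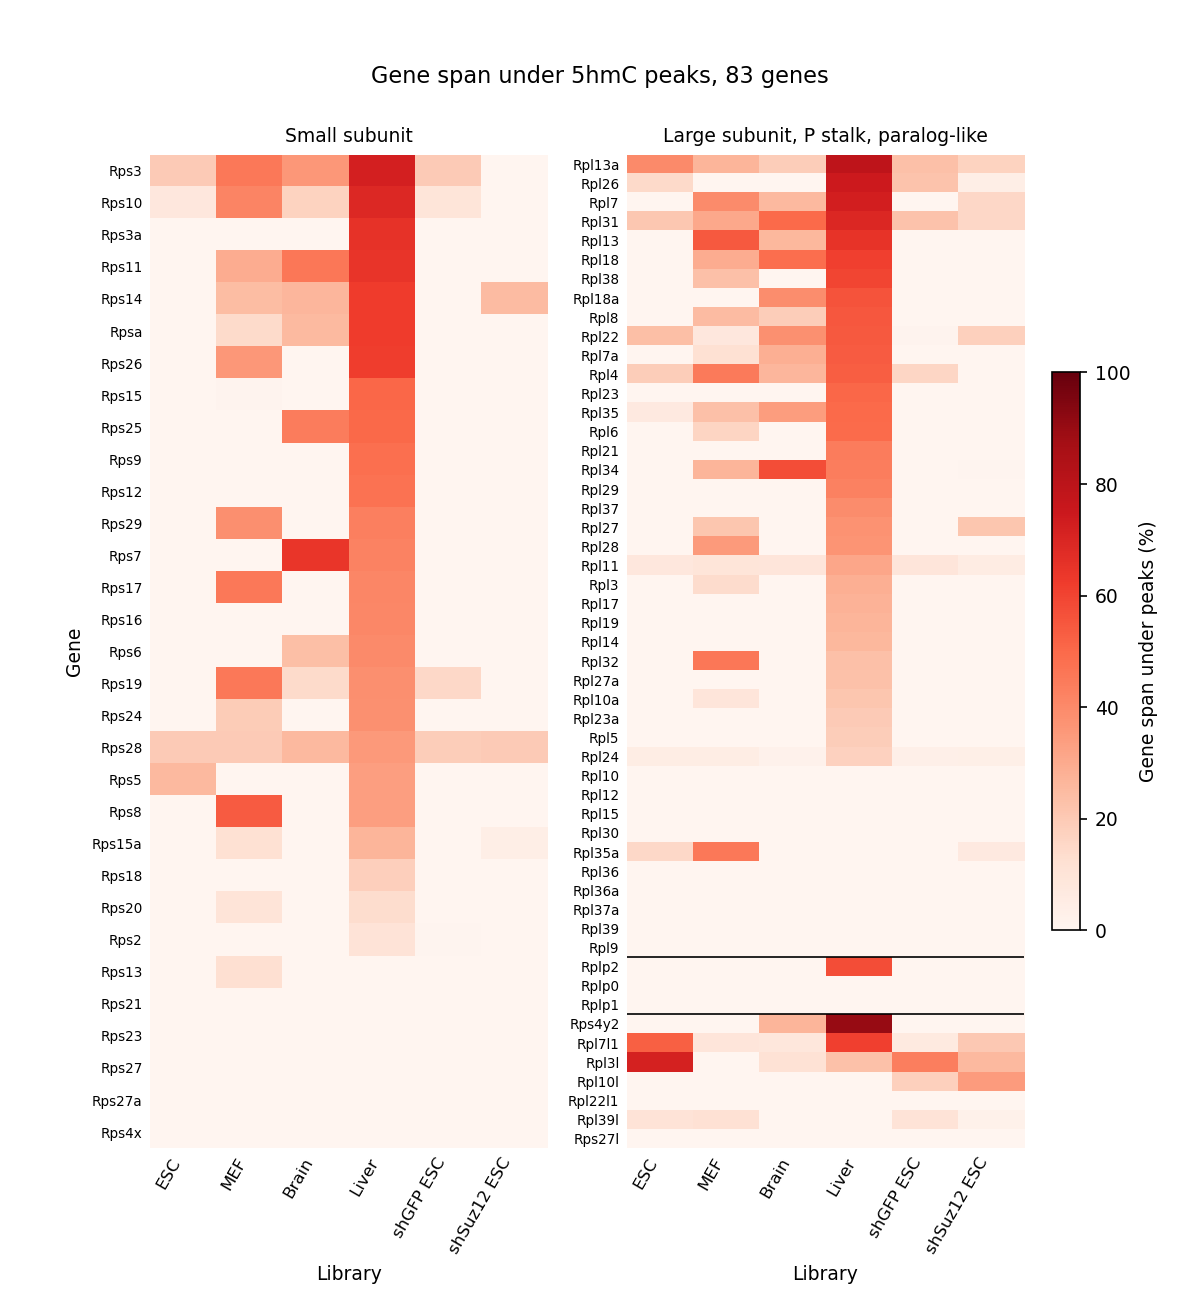
Percent of the gene span under peaks (colour scale) for each ribosomal protein gene and each of the 6 libraries, 1 library per column, grouped by subunit. The liver column is filled for most genes and the 3 ESC libraries are mostly empty.

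Liver peaks were sparse at the start of the genes. When each span was cut into 10 equal stretches from the TSS, the members had 5.35% of the first stretch under liver peaks and 53.2% of the ninth, where genes of similar length had 7.44% and 25.3%. In ESCs they had 2.41% of the first stretch and 8.95% of the last, where genes of similar length had 15.0% and 22.0%. In the members liver was thus above untransfected ESCs at the start of the gene as well, and the gap was wider further in. The first stretch had 4.85% in shGFP, near liver, and 2.24% in shSuz12. Rpl31 gives an example: a liver peak with a score of 192.1 lay in its intron at chr1:39425884-39426853, and no other library had a peak over its middle, though a brain peak at chr1:39426471-39428485 (score 112.48) overlapped its end. The middle 200 bp are printed 5′ to 3′ on the plus strand (NCBIM37, chr1:39426269-39426468), with each CpG in capitals; there are 2.
Rpl31 intron under a liver peak: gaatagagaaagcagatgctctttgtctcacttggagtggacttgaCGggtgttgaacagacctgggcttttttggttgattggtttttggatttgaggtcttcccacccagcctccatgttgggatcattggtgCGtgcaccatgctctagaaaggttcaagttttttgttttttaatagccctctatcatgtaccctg

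Within the member spans, covered DNA held fewer CpGs than uncovered DNA. In liver there were 1.62 CpGs per 100 bp under peaks and 2.75 outside them, and in ESCs 1.82 and 2.40. Exons against introns gave no common direction: covered bp per bp of exon over covered bp per bp of intron was 0.733 in ESCs, 1.39 in MEFs, 1.18 in brain, 1.04 in liver, 0.788 in shGFP and 0.896 in shSuz12. Genes of similar length gave 1.36 in ESCs and 1.21 in liver, and a ratio above 1 in all 6 libraries. Ribosomal protein mRNAs have many processed copies in the genome and only uniquely mapped reads were kept; 76.7% of 31-base words in member exons were unique, beside 93.5% in introns. At unique positions alone the ratio was 0.843 in ESCs, and it was 0.957 in shSuz12 and 0.937 in shGFP. Member exons were the less covered side in the ESC libraries. At scores of at least 80 brain turned to 0.839 and shSuz12 to 1.43, while shGFP kept this side; this cut removes no peak from the ESC list. Of the 58 small nucleolar RNAs in the members, 33 lay under a liver peak and 2 under an ESC peak. Liver peaks covered 34.0% of member intron bp and 35.4% of exon bp, and ESC peaks 8.68% and 6.36%. No share over all small nucleolar RNAs is given here.

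Within 1 kb of the TSS a peak was found in 13 members in ESCs (all genes 31.9%), 16 in MEFs (all genes 30.1%), 10 in brain (all genes 20%) and 41 in liver (all genes 29.4%). It was found in 14 members in shGFP (all genes 27.1%) and 14 in shSuz12 (all genes 21.4%). The bp covered, summed over members, were 5845 in ESCs, 8485 in MEFs, 5627 in brain, 21682 in liver, 10578 in shGFP and 5643 in shSuz12. Among all HCP genes the shares were 27.1% in ESCs, 34.6% in MEFs, 19.7% in brain, 40.5% in liver, 22.3% in shGFP and 17.0% in shSuz12. Of the 43 HCP members 25 had such a peak in liver (58.1%) and 7 in ESCs (16.3%), so they were above their promoter class in liver and below it in ESCs.

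The TSS base itself lay under a peak in 2 members in ESCs (all genes 11.8%), 2 in MEFs (all genes 6.87%), 1 in brain (all genes 4.46%) and 2 in liver (all genes 5.38%). It did so in 5 members in shGFP (all genes 11.2%) and 2 in shSuz12 (all genes 5.83%). The share of TSSs covered, divided by the mean share at 1 to 2 kb on both sides, was 0.240 in ESCs, 0.193 in MEFs, 0.115 in brain, 0.0687 in liver, 1.09 in shGFP and 0.424 in shSuz12. For HCP genes it was 0.103, 0.0645, 0.0429, 0.0584, 0.279 and 0.148, and for all protein-coding genes 0.799, 0.555, 0.409, 0.324, 1.14 and 0.912. In liver 2.41% of members were covered at the TSS base, where the mean at 1 to 2 kb on both sides was 35.1%. The shGFP ratio of the members rested on 5 genes, and their other ratios on 1 or 2 each. Without the paralog-like members the shGFP ratio fell to 0.452. Without them 0 of 76 TSSs were covered in ESCs, brain and shSuz12, so the ratio was 0 there. The interval, 0% to 4.74%, holds the HCP shares of 1.74%, 0.588% and 1.10%. These ratios of 0 therefore do not set the members apart from HCP genes.

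**Figure D4:**
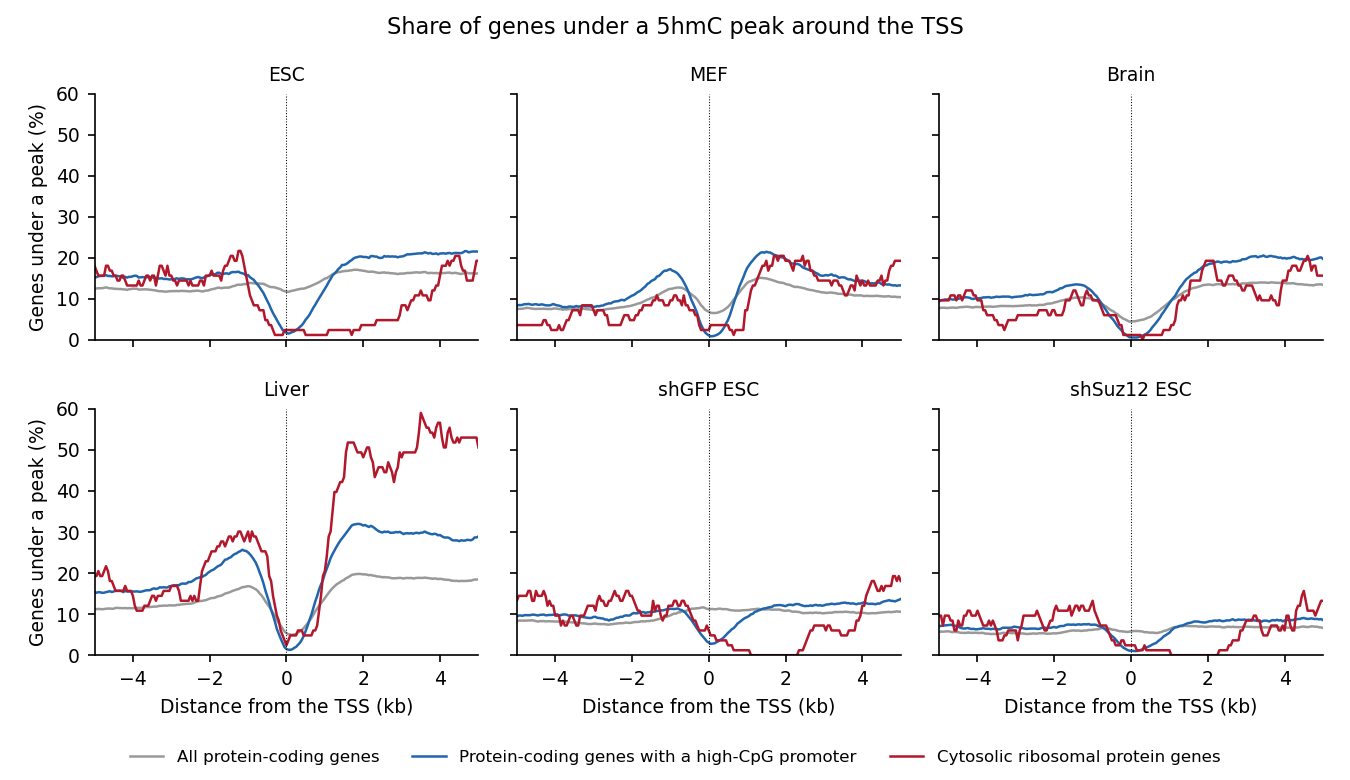
Share of ribosomal protein genes, all protein-coding genes and HCP genes under a peak (vertical axis, %) by distance from the TSS (horizontal axis, kb), 1 panel per library, 1 library each. In liver the ribosomal protein genes rise steeply downstream of a mostly bare TSS, and in the 3 ESC libraries they stay low downstream.

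The sides of the TSS differed between cell types. Averaged over 1 to 3 kb upstream, 16.0% of members were under a peak in ESCs, 6.82% in MEFs, 7.82% in brain, 22.1% in liver, 12.3% in shGFP and 9.76% in shSuz12. Averaged over 1 to 3 kb downstream, it was 3.50% in ESCs, 17.1% in MEFs, 13.3% in brain, 44.3% in liver, 1.76% in shGFP and 1.32% in shSuz12. All protein-coding genes had 16.4% downstream in ESCs and 18.5% in liver. In this range the upstream side was the more covered in the 3 ESC libraries, and the downstream side, which runs past the end of the shortest members, in MEFs, brain and liver.

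The members with a covered TSS base were 7, of which 4 were paralog-like. Rps10, a small-subunit protein ubiquitinated when ribosomes collide, was covered at the TSS in liver and shGFP. Rps2, at the mRNA entry site, was covered in the same libraries. Rpl18, a large-subunit protein, was covered in MEFs. Their annotated TSSs lay 1389 bp (Rps10), 2135 bp (Rps2) and 4164 bp (Rpl18) upstream of the most common start of their transcripts, and that of Rpl3l lay 4856 bp upstream. With Rpl3l, these included all 3 LCP members, so no standard HCP member had a peak on its TSS.

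Rpl39l, a copy of the X-linked Rpl39 known from testis, had 1171 bp of its TSS window under peaks in ESCs, 1189 bp in MEFs, 0 in brain and liver, 1191 in shGFP and 622 in shSuz12. Its TSS was covered in the same 4 libraries, so it had the reverse of the usual order of ESCs and liver. Rpl10l, the testis copy of the X-linked Rpl10, had 574 bp in shGFP, 625 in shSuz12 and 0 bp elsewhere. Rpl3l, the striated muscle copy of Rpl3, had 1070 bp in ESCs, 1086 in shGFP, 658 in shSuz12 and 0 in MEFs, brain and liver. Rps4y2, an intronless copy of the small-subunit gene Rps4x, had 920 bp in brain, 907 in liver and 0 bp elsewhere. The TSS base was covered in ESCs and shGFP at Rpl3l, in shGFP and shSuz12 at Rpl10l, and in brain alone at Rps4y2.

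Rpl7l1, a copy of Rpl7, had 547 bp in liver, 550 in shGFP and 0 bp elsewhere. Rpl22l1, the copy of Rpl22, had 704 bp in liver and 0 bp elsewhere. Rps27l, the copy of Rps27, had 293 bp in brain, 622 in liver and 0 bp elsewhere. These copies had a bare TSS base in all 6 libraries, like most members.

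In the span, Rpl3l had 5962 bp in ESCs, 0 in MEFs, 917 in brain, 1887 in liver, 3639 in shGFP and 2117 in shSuz12. Rpl7l1 had 4583 bp in ESCs, 806 in MEFs, 732 in brain, 5338 in liver, 555 in shGFP and 1788 in shSuz12. Both were among the few members with long peaks in ESCs.

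The 200 bp just upstream of the TSS are printed for Rpl39l and Rpl10l, which lay wholly under peaks in ESC libraries, and for Rps6 and Rpsa, which had no peak there in any library. They run 5′ to 3′ on the strand of the gene, build NCBIM37, with each CpG in capitals: Rpl39l chr16:10170119-10170318, plus strand, 11 CpGs; Rpl10l chr12:67385389-67385588, minus strand, 6 CpGs; Rps6 chr4:86503317-86503516, minus strand, 15 CpGs; Rpsa chr9:120036684-120036883, plus strand, 18 CpGs. These 4 are examples. Some other bare starts held fewer CpGs than these covered ones, as at Rps27a with 1, and others more, as at Rpl34 with 25. The starts of Rps10 and Rps2, wholly covered in liver and shGFP, held 5 and 3. The median over 81 members was 13.
Rpl39l upstream of the TSS: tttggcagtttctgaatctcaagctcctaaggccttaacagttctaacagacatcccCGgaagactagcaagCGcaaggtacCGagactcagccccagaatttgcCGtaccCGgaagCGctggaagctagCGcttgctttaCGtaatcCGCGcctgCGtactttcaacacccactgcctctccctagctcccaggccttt
Rpl10l upstream of the TSS: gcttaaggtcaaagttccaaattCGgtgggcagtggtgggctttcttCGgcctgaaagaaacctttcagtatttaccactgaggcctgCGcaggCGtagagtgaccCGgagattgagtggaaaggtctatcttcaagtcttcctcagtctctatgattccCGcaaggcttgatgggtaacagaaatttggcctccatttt
Rps6 upstream of the TSS: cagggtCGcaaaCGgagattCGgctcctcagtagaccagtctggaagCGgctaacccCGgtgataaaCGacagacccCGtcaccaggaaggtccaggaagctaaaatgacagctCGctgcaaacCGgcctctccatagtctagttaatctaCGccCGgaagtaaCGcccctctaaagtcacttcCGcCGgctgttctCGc
Rpsa upstream of the TSS: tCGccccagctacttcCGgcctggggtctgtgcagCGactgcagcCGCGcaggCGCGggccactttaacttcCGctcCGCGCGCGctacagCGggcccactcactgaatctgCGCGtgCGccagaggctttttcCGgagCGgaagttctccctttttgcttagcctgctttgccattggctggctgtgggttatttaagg

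In the window 1 to 3 kb upstream a peak was found in 30 members in ESCs (all genes 30.3%), 17 in MEFs (all genes 25.3%), 15 in brain (all genes 21.7%) and 40 in liver (all genes 30.1%). It was found in 27 members in shGFP (all genes 22.7%) and 26 in shSuz12 (all genes 20.9%). The member shares, 36.1% in ESCs, 32.5% in shGFP and 31.3% in shSuz12, were above those of all genes, unlike in the span. These differences were not tested, and each rests on 26 to 30 members in 1 library. In ESCs they were not above HCP genes (38.6%) or genes of similar length (36.4%). In shGFP these shares were 28.2% and 27.1%, and in shSuz12 26.7% and 23.2%, below the members. In shSuz12 the order turned at scores of at least 80, at 3.61% of members and 4.06% of all genes. The bp covered were 26595 in ESCs, 11403 in MEFs, 13063 in brain, 36594 in liver, 20495 in shGFP and 16280 in shSuz12. In the 58 members whose upstream window met no other protein-coding gene, 18 had a peak in ESCs, 10 in MEFs, 7 in brain, 26 in liver, 18 in shGFP and 19 in shSuz12. ESCs and liver were above MEFs and brain there, as they were over all genes.

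An upstream peak in all 4 cell types was found in 5 members (6.02%), all of the large subunit. This was near the 5.46% of all protein-coding genes, and below the 7.89% of HCP genes and 7.05% of genes of similar length. Rpl7a had 1326 bp in ESCs, 1657 in MEFs, 1650 in brain, 1772 in liver, 979 in shGFP and 926 in shSuz12. Rpl10a, of the mobile stalk opposite the P stalk, had 1503 bp in ESCs, 358 in MEFs, 1031 in brain, 2000 in liver, 976 in shGFP and 590 in shSuz12. The window also overlapped a neighbour at Rpl7a (Med22), Rpl10a (Fance), Rpl8 (Commd5) and Rpl12 (Lrsam1). Rpl37, a large-subunit protein whose window met no other gene, had 1215 bp in ESCs, 827 in MEFs, 954 in brain, 1240 in liver, 1081 in shGFP and 638 in shSuz12. Rpl8, near the peptidyl transferase centre, had 1123 bp in ESCs, 16 in MEFs, 538 in brain, 1135 in liver, 69 in shGFP and 690 in shSuz12. Rpl12, at the base of the P stalk, had 1352 bp in ESCs, 899 in MEFs, 1033 in brain, 129 in liver, 1114 in shGFP and 0 in shSuz12. Rpl12 was the only 1 of the 5 with its smallest cell-type value in liver.

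An upstream peak in a single cell type was found in 6 members for ESCs, 3 for MEFs, 2 for brain and 12 for liver, or 27.7% of members in all, where 20.9% of all protein-coding genes had this. For ESCs the largest was at Rps2, with 1674 bp in ESCs, 1505 in shGFP, 1136 in shSuz12 and 0 in MEFs, brain and liver. The window of Rps2 also overlapped the gene Rnf151. Rpl26, at the exit tunnel, had 707 bp in ESCs, 41 in shGFP and 24 in shSuz12. Rpl32, of the large subunit, had 640 bp in ESCs and 586 in shGFP. The other 3 members of this group had 0 bp in shGFP. Upstream peaks private to ESCs thus recurred in shGFP at only some genes.

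For MEFs they were Rpl14 (large subunit, 682 bp, with 791 bp in shGFP), Rps13 (small subunit, 494 bp) and Rpl3 (at the peptidyl transferase centre, 439 bp, with 606 bp in shSuz12). For brain they were Rps18 (at the head of the small subunit, 839 bp) and Rpl34 (large subunit, 202 bp). The window of Rps18 also overlapped the gene Vps52. For liver the largest were Rpl19 (a bridge between subunits, 1278 bp, with 831 bp in shGFP), Rps6 (1236 bp) and Rpl28 (large subunit, 697 bp). Some peaks found in a single cell type thus had a counterpart in a transfected ESC library.

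Rps19 had 1459 bp upstream in ESCs, 0 bp in MEFs, 708 in brain, 835 in liver, 1152 in shGFP and 1765 in shSuz12. Rps14 had 744 bp in ESCs, 0 in MEFs and brain, 1472 in liver, 1470 in shGFP and 1000 in shSuz12. Both had upstream peaks in ESCs beside bare spans. Rplp0 had 385 bp upstream in MEFs, 1340 bp in liver, 30 in shGFP, 601 in shSuz12 and 0 in ESCs and brain. Rplp1 had 397 bp in MEFs, 1816 in liver and 0 bp elsewhere. P stalk genes without any span peak therefore still had liver peaks ahead of the gene. The window of Rplp1 also overlapped the gene Kif23, while that of Rplp0 met no other protein-coding gene.

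ESCs and shGFP, neither with Suz12 depleted, gave the same call in the span for most members: both had a peak in 13, ESCs alone in 3, shGFP alone in 3 and neither in 64. Of all protein-coding genes 60.5% had a peak in both and 29.4% in neither, so such likeness was not particular to the members. From shGFP to shSuz12 the bp covered in member spans went from 17720 to 15442, a ratio of 0.871, beside 0.706 over all protein-coding spans and 0.689 over the genome. Fewer bp were covered in 11 members, where 50.2% of all protein-coding genes had fewer. More bp were covered in 11 members, where 19.3% of all had more, and 61 members had 0 bp in both. Relative to the genome ratio the members' ratio was 1.26 in the lists as deposited, so the direction depends on that choice. In the TSS window the ratio was 0.533, beside 0.540 over all genes, and upstream 0.794, beside 0.683.

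The largest falls were at Rpl3l (3639 to 2117 bp), Rps3 (1160 to 0 bp), Rpl11 (2279 to 1287 bp), Rpl26 (1189 to 215 bp) and Rpl4 (819 to 0 bp). The largest rises were at Rpl22 (80 to 1479 bp), Rpl7l1 (555 to 1788 bp), Rps14 (0 to 1005 bp), Rpl27 (large subunit, 0 to 682 bp) and Rpl7 (large subunit, 0 to 521 bp). All of these rises included a shSuz12 peak below the lowest score of the shGFP list: the scores were 37.91 at Rpl22, 35.16 and 47.58 at Rpl7l1, 49.18 at Rps14, 34.05 at Rpl27 and 38.75 at Rpl7. A peak of such a score in shGFP would not have been listed. The lists ended at different scores, and with scores of at least 80 the ratio over member spans was 0.0804, with 10 members in shGFP and 2 in shSuz12. All protein-coding genes with a span peak went from 53.1% to 30.4% at this cut. The mean percent of span covered went from 8.82% to 2.32% in all genes and from 1.71% to 0.179% in members. At this cut the members thus fell by the larger factor. The falls and rises were counted in the lists as deposited.

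No peak lay in any of the windows in any library in 9 members, or 10.8%, against 18.7% of all protein-coding genes, 2.34% of HCP genes and 23.7% of genes of similar length. They were the large-subunit genes Rpl10, Rpl15, Rpl30, Rpl37a and Rpl39 and the small-subunit genes Rps23, Rps27, Rps27a and Rps4x, of which Rps27a is made as a fusion to ubiquitin. Rpl10, Rpl39 and Rps4x are X-linked. The X chromosome had 1.97 peaks per Mb in ESCs, 4.54 in MEFs, 0.132 in brain, 0.624 in liver, 2.11 in shGFP and 2.72 in shSuz12, where the autosomes had 69.4, 87.5, 63.7, 52.7, 53.6 and 55.9. The bare X-linked members therefore lay on a chromosome almost without peaks, and the other 6 on autosomes.

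Mitochondrial ribosomal protein genes, the counterpart set, did not share the scarcity of span peaks in ESCs. They did share much of the excess of liver over ESCs. More bp of the span lay under peaks in liver in 50 of them (65.8%), against 72.3% of members. Of 76 such genes a span peak was found in 57 in ESCs, 37 in MEFs, 53 in brain, 64 in liver, 43 in shGFP and 43 in shSuz12. In liver that was 84.2%, near the 73.5% of the cytosolic members, while in ESCs 57 of 76 stood against 16 of 83. All protein-coding genes had 57.9% in liver and 67.8% in ESCs. Genes for translation factors, 27 in all, had a span peak in 20 in ESCs, 21 in MEFs, 20 in brain, 25 in liver, 18 in shGFP and 19 in shSuz12. Mitochondrial ribosomal protein genes were longer, with a median span of 7733.5 bp, and these lists were not matched for length.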

How the data were processed

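Peak lists of 5hmC from GLIB-Seq were read as deposited, 1 library for each of 6 groups. The submitters' processing notes state that reads were mapped to mm9 with Bowtie 0.12.7, keeping unique hits, that redundant reads were collapsed, and that peaks were called with MACS 1.4.1 in each library. The deposited score of each peak came from the authors' peak calling and was read as the p-value on a scale of minus 10 times log10; the score threshold and the control are not stated. Read depth is unknown, so neither depth nor enrichment under a peak could be given. The RNA-Seq samples were not analysed here.

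Gene spans, TSSs, exons and small nucleolar RNAs came from GENCODE M1 on NCBIM37. The TSS was the outer end of the gene record. CpG classes were called in 500-bp windows moved by 5 bp from 700 bp upstream to 200 bp downstream of the TSS. Uniqueness was the share of 31-base words found once in the genome. All steps were run with Python 3.11.15, numpy 2.4.6, pandas 2.3.3, scipy 1.17.1, numba 0.67.0 and matplotlib 3.10.9, and were tested on simulated data. No test was made, as each group has 1 library.

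Genes were named by rule: a covered TSS base in any library; a span peak in all 6 libraries; no peak in any window; the 5 highest mean percents of span over 4 cell types; the 5 largest falls and 5 largest rises from shGFP to shSuz12; upstream peaks in all 4 cell types or in only 1 (up to 3 each); paralog-like members; and a list of well-studied genes. The members and the gene lists were chosen with earlier results of these data known. Alternatives kept the 50% highest scores, kept scores of at least 80, counted peak midpoints, changed window and flank sizes, moved the TSS to the most common transcript start, or left out paralog-like or X-linked members.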

Additional observations from a re-analysis of the deposited data

How the results depend on the processing

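Samples were not paired, as every group has a single library. Intervals cover counting error only, and the lists do not all end at the same score. In the alternatives, 127 values stayed within 1.5 times the main value, 55 moved further and 9 reversed. Many of the 127 could not change: a score of at least 80 removes no peak from ESCs or liver, and the X-linked members have a peak in only 1 window of 1 library. A stricter score keeps fewer peaks by construction; for the other changes the cause was not tested. Leaving out the X-linked members was an alternative chosen after seeing the data.

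Members with a span peak, with the 50% highest scores kept, were 21 in MEFs, 16 in brain, 10 in shGFP and 10 in shSuz12. With scores of at least 80 they were 13 in MEFs, 9 in brain, 10 in shGFP and 2 in shSuz12.

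Members with a peak within 1 kb of the TSS, with the 50% highest scores kept, were 8 in ESCs, 8 in MEFs, 3 in brain, 25 in liver, 6 in shGFP and 5 in shSuz12. With scores of at least 80 they were 2 in MEFs, 1 in brain, 7 in shGFP and 1 in shSuz12. By peak midpoint they were 8 in ESCs, 9 in MEFs, 6 in brain, 17 in liver and 9 in shSuz12. Within 500 bp of the TSS they were 5 in ESCs, 8 in MEFs, 6 in brain, 24 in liver and 6 in shSuz12.

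Members with a peak 1 to 3 kb upstream of the TSS, with the 50% highest scores kept, were 17 in ESCs, 11 in MEFs, 6 in brain, 25 in liver, 15 in shGFP and 13 in shSuz12. With scores of at least 80 they were 5 in MEFs, 3 in brain, 17 in shGFP and 3 in shSuz12. By peak midpoint they were 10 in MEFs and 26 in liver. At 1 to 5 kb upstream they were 24 in brain.

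The TSS to flank ratio of members, with the 50% highest scores kept, was 0.384 in ESCs and 0 in brain, and it reversed to 0.984 in shGFP. With scores of at least 80 it was 0 in MEFs, 0 in brain and 0 in shSuz12, and reversed to 0.887 in shGFP. From the most common transcript TSS it was 0.322 in MEFs, 0.223 in brain and 0.720 in shSuz12, and reversed to 0.674 in shGFP. With flanks at 2 to 5 kb it reversed to 0.567 in shGFP. Without paralog-like members it was 0.0966 in MEFs, 0 in ESCs, 0 in brain and 0 in shSuz12, and reversed to 0.452 in shGFP.

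The exon to intron ratio of bp covered in members reversed to 0.940 in brain with the 50% highest scores kept. With scores of at least 80 it reversed to 0.839 in brain and to 1.43 in shSuz12.

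The ratio of bp covered, shSuz12 to shGFP, over member gene spans was 0.566 with the 50% highest scores kept and 0.0804 with scores of at least 80. Relative to all bp covered in the lists as deposited it reversed to 1.26.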

Other observations

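Of 30 ribosome biogenesis genes, a span peak was found in 23 in ESCs, 17 in MEFs, 21 in brain, 23 in liver, 22 in shGFP and 23 in shSuz12. Within 1 kb of the TSS it was 5 in ESCs, 10 in MEFs, 4 in brain, 16 in liver, 3 in shGFP and 0 in shSuz12. Upstream it was 9 in ESCs, 10 in MEFs, 14 in brain, 16 in liver, 7 in shGFP and 7 in shSuz12. These genes had span peaks in ESCs about as often as in liver, where all protein-coding genes had 67.8% and 57.9%.

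Mitochondrial ribosomal protein genes had a peak within 1 kb of the TSS in 19 in ESCs, 22 in MEFs, 12 in brain, 36 in liver, 7 in shGFP and 9 in shSuz12, and upstream in 33, 14, 20, 42, 18 and 22. Translation factor genes had 5, 6, 6, 11, 4 and 2 within 1 kb of the TSS, and 11, 7, 7, 16, 6 and 10 upstream. Of the 58 small nucleolar RNAs inside members, 2 lay under a peak in ESCs, 14 in MEFs, 12 in brain, 33 in liver, 2 in shGFP and 0 in shSuz12. Peaks covered 8.68%, 10.6%, 9.39%, 34.0%, 5.23% and 4.35% of member intron bp in the same order.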
